A study of Mus musculus with 8 samples.

Results

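The open chromatin around amino acid transporter genes was examined in mouse microglia, the resident macrophages of the brain, after exposure to interleukin-33 (IL-33). The genes were taken by symbol: every ATAC-seq peak whose assigned gene begins with Slc1a, Slc3a, Slc6a, Slc7a, Slc36a, Slc38a or Slc43a and a number. That gave 410 of 104981 peaks, at 60 of 18207 genes. Assignment was to the nearest annotated start site, so a peak may act on another gene or on none. The pattern is broader than its name. The SLC6 family also holds carriers of monoamines, taurine, betaine and creatine, Slc43a3 carries nucleobases, and Slc7a6os and Slc36a1os were taken by their prefix alone.

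Mice at postnatal day 30 were given IL-33, an alarm cytokine related to interleukin-1 and sensed through ST2, or vehicle alone by unilateral injection into a brain ventricle, 4 mice each, and microglia were collected 4 h later. Each group held 2 female and 2 male mice. Microglia were purified from cortex by a density gradient and flow cytometry, while the labels used here name no strain, genotype or dose. The table names each library by group and its own number, but not the mouse, so sex was not a term in any fit. Values below are listed for libraries 1 to 4 of a group in that order, as tags at a peak after each library was scaled to 10000000 tags.

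Libraries held 35842688 to 43857673 tags. Peaks took 20.8% to 27.9% of the tags in vehicle libraries and 14.2% to 31.3% in IL-33 libraries, IL-33 library 2 being the lowest of the 8. The promoters of 6 of 8 microglial marker genes carried a peak, with a mean of 60.5 to 86.2 tags per gene in vehicle libraries and 41.6 to 86.4 after IL-33. Csf1r and Aif1 had no promoter peak. Among markers of other cell types, promoter peaks were present at 1 of 6 neuronal, 3 of 6 astrocyte, 1 of 4 oligodendrocyte, 2 of 4 endothelial and 1 of 5 monocyte or neutrophil genes, at means of 2.11 to 28.9 tags per gene over all libraries, and at 0 of 3 T cell and 0 of 2 B cell genes.

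Amino acid transporters move amino acids across the plasma membrane and the lysosomal membrane, usually coupled to sodium, to protons or to the exchange of another amino acid. SLC7 light chains such as Slc7a5, Slc7a7, Slc7a8 and Slc7a11 reach the plasma membrane bound to the SLC3 heavy chain Slc3a2. In macrophages, arginine uptake feeds nitric oxide and polyamine synthesis, cystine uptake through Slc7a11 feeds glutathione, and leucine and glutamine uptake feed growth signalling through mTORC1. SLC1 carriers of astrocytes clear glutamate released at synapses.

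After the weakest peaks were left out, 371 transporter peaks were tested in one fit with all 94480 tested peaks (limma, Benjamini-Hochberg adjusted p under 0.05, standard error of a log2 change 0.34 at every peak). IL-33 raised 44 of them (11.9%), against 8.53% of all tested peaks, and lowered 17 (4.58%), against 4.99%. The median log2 change was -0.11 over the transporter peaks and -0.14 over all peaks. At 44 peaks every IL-33 library lay above every vehicle library (8.06% of all tested peaks did so), and at 22 every one lay below (5.89%). These are not the same peaks as those called: 36 of the 44 raised and 11 of the 17 lowered peaks were without overlap, and the rest were not called. The raised and lowered peaks were spread over 26 genes, 19 with a raised peak, 11 with a lowered peak and 4 with both. Raised peaks had means of 0.958 to 33.6 tags in vehicle libraries and reached 6.68 to 101 tags after IL-33. The filter used the mean over all 8 libraries, 4.30 tags at the lowest peak tested. A peak with a lower vehicle mean than that was therefore tested only through its IL-33 values. The median vehicle mean of the raised peaks, 3.58 tags, was below that level. The most raised peaks at Slc7a11, Slc36a4, Slc7a5, Slc7a1, Slc1a2, Slc1a3, Slc1a5 and Slc3a1, described below, were such cases. Their adjusted p-values are to be read with this limit.

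The counts depended on scaling and on single libraries. All peaks together were shifted, with a median log2 change of -0.14 as deposited, -0.05 after median-ratio scaling and -0.01 in edgeR with TMM factors. Of the transporter peaks called as deposited, 72.1% were higher, and with quantile normalization 64 were higher and 49 lower, so that 56.6% were higher. Without IL-33 library 2, 67 peaks rose and 17 fell. Without IL-33 library 4, 28 rose and 29 fell, and the lowered peaks numbered 11 without vehicle library 2, vehicle library 4 or IL-33 library 3. IL-33 library 2 had the lowest value of its group at 39 of the 44 raised and 14 of the 17 lowered peaks, as it did for the share of tags in peaks, and its part in the changes was not tested beyond leaving it out. Of the 61 called peaks, 41 kept their call in every alternative in which they were tested, 33 of them higher and 8 lower. A called peak was tested in 13 to 17 alternatives, because some weak peaks fell below the filter when libraries were left out. Alternatives without a test of the peak are not counted against it.

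**Figure D1:**
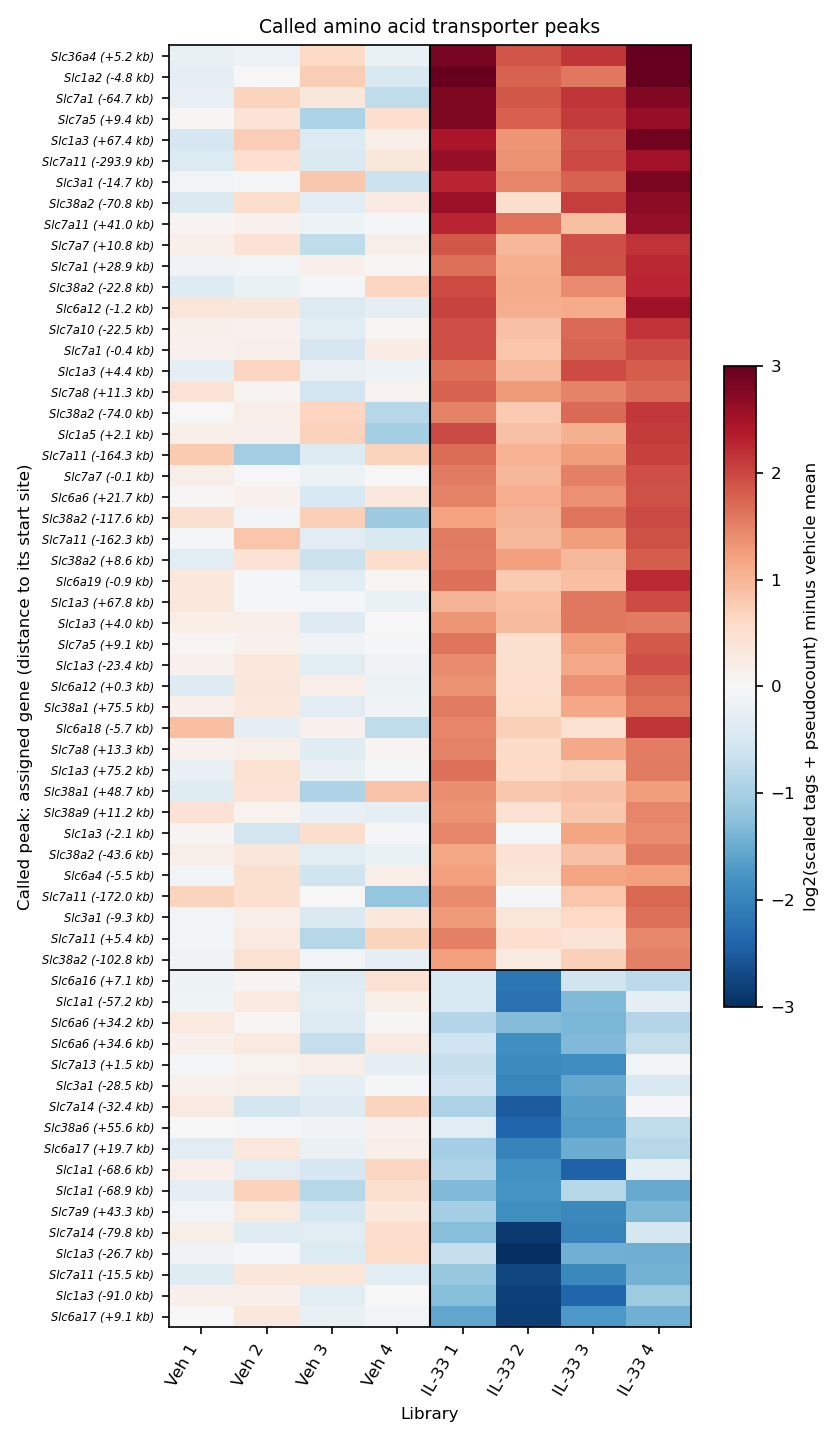
Heat map of the 61 transporter peaks that passed the test, one row per peak with its assigned gene and its distance from that gene's start site in kilobases, and one column per library. Colour is the log2 level (scaled tags plus the pseudocount) minus the mean of the 4 vehicle libraries. The 44 raised peaks stand above the line and the 17 lowered peaks below it, and the column of IL-33 library 2 is paler than its neighbours among raised peaks and darker among lowered ones.

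The SLC7 light chains and cationic amino acid carriers had 16 of 104 tested peaks raised (15.4%, against 8.53% of all peaks) and 5 lowered (4.81%, against 4.99%). This was the largest family by tested peaks. Slc7a11, the cystine and glutamate exchanger that supplies cystine for glutathione, had 18 tested peaks, of which 6 rose and 1 fell. Its most changed peak lay far upstream in intergenic sequence (chr3:50737398-50737617, 293.9 kb from the start site). This peak had 0.38, 1.72, 0.34 and 1.39 tags in the vehicle libraries and 11.2, 4.01, 6.88 and 10.4 in the IL-33 libraries (a log2 difference of 2.12, adjusted p = 2.41e-08). The groups did not overlap, and vehicle libraries 1 and 3 were close to the level of 3 reads, 0.342 to 0.418 tags. An intronic peak 41.0 kb downstream of the start site went from 5.37, 5.55, 4.33 and 4.74 to 28.7, 17.8, 10.3 and 37.3 tags (a log2 difference of 1.87, adjusted p = 1.40e-06). The opposite change occurred 15.5 kb upstream, where 11, 18.5, 18.9 and 11.2 tags became 5.99, 1.18, 2.93 and 4.69 (a log2 difference of -1.803, adjusted p = 3.56e-06). Again the groups did not overlap, so that one locus held peaks moving both ways.

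The Slc7a11 promoter peak (chr3:50443514-50443795) had 27.1, 32.2, 19.5 and 26.1 tags in vehicle libraries and 60.8, 26.5, 42.7 and 72.5 after IL-33. IL-33 library 2 lay within the vehicle range and the other 3 above it, and the change did not pass the test (a log2 difference of 0.85, adjusted p = 0.0785). It did pass with median-ratio scaling, quantile normalization, TMM, the larger pseudocount, and without IL-33 library 2, alone or together with vehicle library 3 (adjusted p from 2.44e-06 to 0.243 over the 17 alternatives). In mouse cells ATF4, a transcription factor of the amino acid response, is known to act on this promoter.

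Slc7a7, a light chain that exchanges cationic for neutral amino acids and is highly expressed in macrophages, carried 3 promoter peaks that did not move together. The upstream one (chr14:54417614-54418084) rose from 28.5, 24.8, 22.4 and 24.97 tags to 76.1, 51.4, 73.8 and 99.5 (a log2 difference of 1.503, adjusted p = 1.95e-04). Every IL-33 library there was above every vehicle library. The middle one (chr14:54409940-54410168) had 35.8, 32.9, 19.04 and 27.9 tags against 44.9, 20.04, 37.1 and 52.7 (a log2 difference of 0.36, adjusted p = 0.599). The downstream one (chr14:54409309-54409573) had 56.4, 52.3, 34.1 and 55.7 tags against 50.9, 28.3, 34.5 and 56.8 (a log2 difference of -0.24, adjusted p = 0.744), with overlapping groups. Taken within each library, the log2 ratio of the upstream to the downstream promoter peak was 1.74 higher after IL-33, with an SD of 0.24 among vehicle and 0.21 among IL-33 libraries (n = 4 per group). The pair was chosen after its values were seen, so no test is given, and the scaling of a library cancels in such a ratio. An intronic Slc7a7 peak 10.8 kb downstream of the start site also rose, from 3.58, 4.62, 1.37 and 3.63 to 14.4, 7.31, 15.03 and 18 tags (a log2 difference of 1.74, adjusted p = 9.13e-06).

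The start-site sequences of these genes are shown because the promoters of Slc7a7 differed from each other in their change, and because at Slc7a11 and Slc7a7 the promoter change exceeded the distal change, as described further on. They are the 250 bases before the annotated start (RefSeq, GRCm38.p6), read 5′ to 3′ on the minus strand of each gene. Capitals mark a match, on either strand, to TGATGCAA, a composite element bound by ATF4 with C/EBP factors, or to GGGANTTCC, an NF-kB element. The windows are chr3:50443614-50443863 for Slc7a11, chr14:54417703-54417952 for the upstream Slc7a7 start and chr14:54409473-54409722 for the downstream one.
Slc7a11: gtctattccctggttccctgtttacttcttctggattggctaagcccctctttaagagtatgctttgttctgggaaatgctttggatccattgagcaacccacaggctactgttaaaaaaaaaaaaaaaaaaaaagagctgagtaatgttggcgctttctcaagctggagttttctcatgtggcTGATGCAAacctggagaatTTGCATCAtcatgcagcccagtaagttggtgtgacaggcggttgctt
Slc7a7 upstream: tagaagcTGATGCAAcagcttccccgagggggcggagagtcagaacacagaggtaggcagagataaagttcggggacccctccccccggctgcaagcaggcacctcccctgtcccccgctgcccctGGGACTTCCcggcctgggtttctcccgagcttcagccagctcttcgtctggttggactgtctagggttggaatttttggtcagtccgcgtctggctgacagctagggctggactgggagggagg
Slc7a7 downstream: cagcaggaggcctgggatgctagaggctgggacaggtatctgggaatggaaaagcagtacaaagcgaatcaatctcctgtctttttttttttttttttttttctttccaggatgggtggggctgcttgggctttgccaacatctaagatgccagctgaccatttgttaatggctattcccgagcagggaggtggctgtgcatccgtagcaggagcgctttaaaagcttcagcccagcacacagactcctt
The Slc7a11 window held TGATGCAA at 66 and 47 bases before the start, and the upstream Slc7a7 window held it at 243 and GGGANTTCC at 124 bases, all inside the respective promoter peaks. The downstream Slc7a7 window held neither. RefSeq annotates other starts within the upstream Slc7a7 peak, and the one shown holds the most matches. TGATGCAA was found in 0.791% of the 32851 promoters of the table and in 2 of the 62 promoters of the 43 transporter genes listed there, those of Slc7a11 and Slc7a7. GGGANTTCC was found in 1.43% of all and in 3 of the 62, at Slc7a10 and Slc7a7. The Slc7a7 windows with it overlap and hold the same match. The other motifs searched on both strands were TGANTCA (a loose AP-1 pattern), in 6.75% of all promoters and 8 of the 62, GGANTTTCC (NF-kB), in 1.07% and 1 of the 62, TGACNNNGC (antioxidant response element), in 10.2% and 9 of the 62, and GAGGAAGT (PU.1), in 2.44% and 0 of the 62. TGANTCA leaves its middle base open. The matches at Slc38a10, Slc38a7 and Slc6a12 read TGATTCA, and one at Slc6a17 reads TGAATCA. A match describes these letters only.

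Slc7a5, the light chain for leucine and other large neutral amino acids, had 2 raised peaks next to each other in an intron, 9.4 and 9.1 kb downstream of the start site. The first (chr8:121898158-121898416) had 2.94, 4.1, 0.91 and 4.46 tags in vehicle libraries and 26.5, 12.6, 15.9 and 23.3 after IL-33 (a log2 difference of 2.33, adjusted p = 4.99e-10). The second (chr8:121898469-121898757) went from 24.9, 26.6, 22.2 and 23.02 to 75.3, 34.3, 59.4 and 88.9 tags (a log2 difference of 1.29, adjusted p = 0.002). Neither pair of groups overlapped, and the lowest IL-33 library was library 2 in both. The Slc7a5 promoter sum did not pass the test (93.03 ± 16.9 to 80.97 ± 17.97 tags, mean ± SD, a log2 difference of -0.200, adjusted p = 0.759).

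Slc7a1, the general carrier of arginine, lysine and ornithine, had 3 raised peaks of 12 tested and 0 lowered. An intergenic peak 64.7 kb upstream (chr5:148464454-148464680) rose from 2.3, 5.28, 3.99 and 1.26 to 27.3, 13.6, 16.8 and 26.6 tags (a log2 difference of 2.39, adjusted p = 1.52e-10). A promoter peak upstream of the start site (chr5:148400208-148400492) rose from 7.04, 7.13, 4.1 and 7.53 to 27.4, 12.03, 24.1 and 27.8 tags (a log2 difference of 1.62, adjusted p = 4.62e-05). The neighbouring promoter peak over the start site itself (chr5:148399778-148400035) had 69.97, 82.6, 55.4 and 85.9 tags against 107, 52.8, 83.05 and 104 (a log2 difference of 0.21, adjusted p = 0.779), with overlapping groups. The within-library log2 ratio of the upstream to the start-site peak was 1.41 higher after IL-33 (SD 0.13 among vehicle and 0.12 among IL-33 libraries, n = 4 per group), a pair likewise chosen after its values were seen and given without a test. Slc7a2, the carrier through which macrophages take up arginine for nitric oxide synthesis, had 3 tested peaks and 0 called, and its summed signal was 13.4 ± 4.28 tags in vehicle and 13.9 ± 4.68 after IL-33 (a log2 difference of 0.04, adjusted p = 0.967).

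Slc7a8, a light chain for neutral amino acids, had 2 raised intronic peaks of 17 tested. The more changed one (chr14:54770430-54770716, 11.3 kb downstream) went from 13.1, 10.2, 6.04 and 10.3 to 35.6, 24.9, 29.04 and 33.6 tags (a log2 difference of 1.56, adjusted p = 9.69e-05), without overlap. Slc7a10, a carrier of small neutral amino acids such as glycine and serine, had the raised peak with the most tags, intergenic and 22.5 kb upstream (chr7:35163707-35164006). It rose from 32.8, 32.1, 22.8 and 30.4 to 115, 55.2, 97.95 and 135 tags (a log2 difference of 1.67, adjusted p = 2.21e-05), and the groups did not overlap. Slc7a10 itself had little promoter signal, 4.51 tags in vehicle libraries on average and 5.96 after IL-33.

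The other falls in this family lay at Slc7a14, Slc7a9 and Slc7a13, none of which had a promoter peak. Slc7a14 had 41.1, 28.1, 28.8 and 52.6 tags at a peak 79.8 kb upstream in vehicle libraries and 14.4, 4.01, 8.15 and 24.7 after IL-33 (a log2 difference of -1.67, adjusted p = 2.24e-05). Slc7a9, a kidney light chain for cystine and basic amino acids, fell 43.3 kb downstream of its start from 7.16, 9.51, 4.9 and 9.76 to 3.19, 1.3, 1.15 and 2.28 tags (a log2 difference of -1.53, adjusted p = 1.42e-04). Slc7a13, known from mouse kidney, had a single tested peak with 6.01, 6.87, 7.3 and 5.02 tags against 3.44, 0.83, 0.89 and 5.83 (a log2 difference of -1.13, adjusted p = 0.00925). The groups overlapped at Slc7a13, and its call was lost with the larger pseudocount, in edgeR with total library sizes, after leaving out IL-33 library 3, and after leaving out vehicle library 3 together with IL-33 library 2 (adjusted p up to 0.168).

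The SLC3 heavy chains had 2 of 12 tested peaks raised and 1 lowered (16.7% and 8.33%, against 8.53% and 4.99% of all peaks), all assigned to Slc3a1. Slc3a2, the partner of the SLC7 light chains above, had 8 tested peaks and 0 called. Its promoter sum was 138, 147, 119.8 and 150.4 tags in vehicle libraries and 148, 74.3, 125 and 155 after IL-33 (a log2 difference of -0.18, adjusted p = 0.759), the groups overlapping. Slc3a1, a kidney heavy chain, was the nearest start site to 3 called peaks that all lie inside the neighbouring gene Ppm1b. The strongest change there (chr17:85013465-85013804, an exon of Ppm1b) was a rise from 1.79, 1.85, 4.33 and 0.84 to 14.02, 7.55, 9.55 and 20.9 tags (a log2 difference of 2.08, adjusted p = 4.24e-08). Another peak in a Ppm1b intron fell from 60.8, 63.3, 45.1 and 54.5 to 35.6, 13.4, 18.5 and 40.3 tags (a log2 difference of -1.14, adjusted p = 0.00861), a call lost without IL-33 library 3 (adjusted p = 0.0773).

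**Figure D2:**
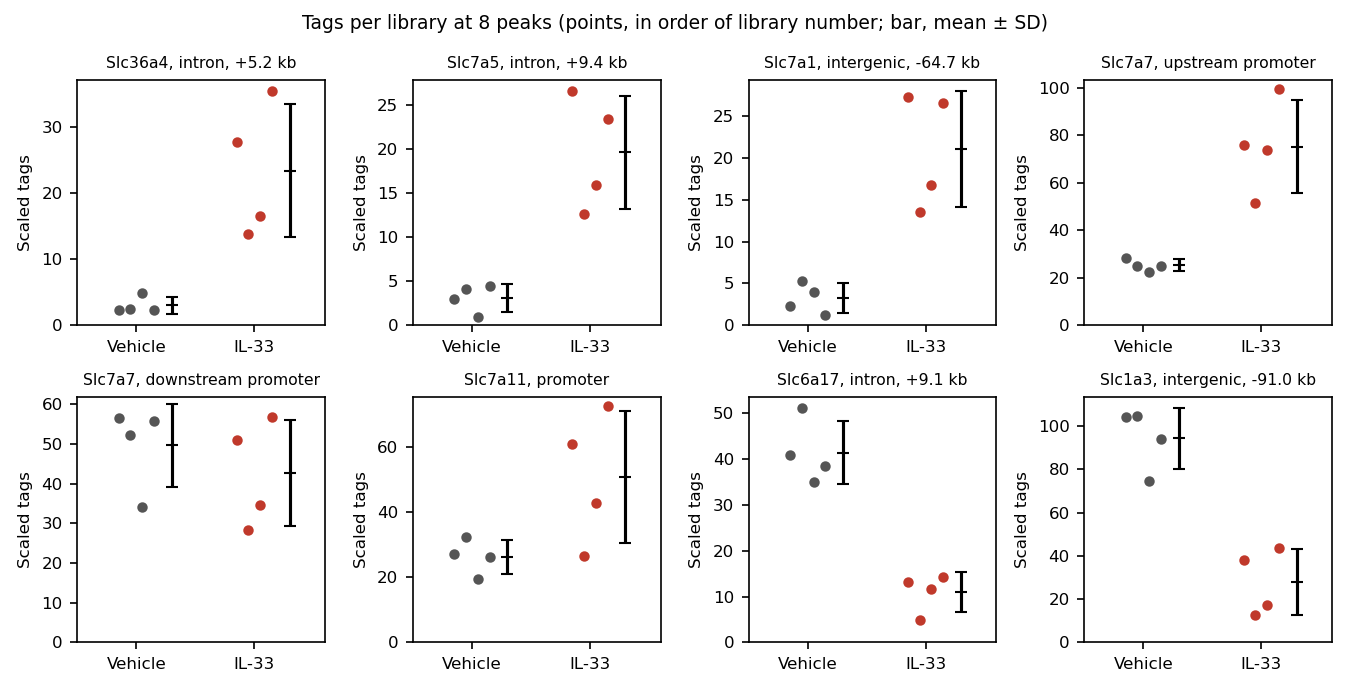
Scaled tags per library at 8 transporter peaks, in vehicle libraries (grey points) and IL-33 libraries (red points), with the mean and SD of each group of 4 as a black bar; every axis starts at 0. The groups are apart at the Slc36a4, Slc7a5, Slc7a1, upstream Slc7a7, Slc6a17 and Slc1a3 peaks, and overlap at the downstream Slc7a7 and the Slc7a11 promoter peaks.

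The SLC1 carriers of glutamate and neutral amino acids had 9 of 60 tested peaks raised (15%, against 8.53% of all peaks) and 5 lowered (8.33%, against 4.99%). Slc1a3, the astrocyte glutamate carrier, was the locus with the most peaks (42, of which 38 were tested), 7 raised and 2 lowered. The strongest rise lay in an intron 67.4 kb downstream of the start (chr15:8643253-8643495), from 0.77, 3.43, 0.91 and 1.95 to 13.8, 5.66, 9.3 and 19.3 tags (a log2 difference of 2.15, adjusted p = 1.46e-08). The strongest fall was 91.0 kb upstream in intergenic sequence (chr15:8801677-8802013), from 104, 105, 74.6 and 93.9 to 38.1, 12.5, 17.2 and 43.9 tags (a log2 difference of -1.88, adjusted p = 1.19e-06). The groups did not overlap there, and IL-33 libraries 2 and 3 were the lowest. The single Slc1a3 promoter peak was weak, with 8.73 tags in vehicle libraries and 6.31 after IL-33 on average.

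Slc1a2, the main glutamate carrier of astrocytes, had no promoter peak and 1 raised peak of 4, in an intron (chr2:102701543-102701818). Its tags went from 0.77, 1.19, 2.74 and 0.56 to 24.1, 6.84, 5.86 and 18.3 (a log2 difference of 2.46, adjusted p = 4.01e-11), IL-33 libraries 1 and 4 being the highest. Slc1a5, a glutamine carrier, gained an intronic peak 2.1 kb downstream, from 2.17, 2.11, 3.53 and 0.28 to 10.4, 4.24, 4.97 and 11.3 tags (a log2 difference of 1.51, adjusted p = 1.85e-04). Slc1a1, a glutamate and cysteine carrier of neurons, had 3 lowered peaks and 0 raised, all more than 50 kb upstream. The one with the smallest p (chr19:28766129-28766385) fell from 5.37, 11.8, 3.31 and 10.04 to 2.04, 1.18, 3.31 and 1.65 tags (a log2 difference of -1.37, adjusted p = 8.65e-04), where vehicle library 3 and IL-33 library 3 were equal at 3.31 tags. In bulk libraries fewer cells of a type and less open chromatin per cell cannot be told apart. Signal over all peaks of the 6 astrocyte markers, Slc1a2 and Slc1a3 among them, summed to 945 to 1224 tags in vehicle libraries and 462 to 1325 after IL-33, with Gfap, Aqp4 and Slc1a2 at 0 promoter peaks. Most of that sum was Slc1a3 itself, with 783 to 1052 tags in vehicle libraries and 378 to 1116 after IL-33, so it says little about the other markers. The 6 neuronal markers summed to 211 to 278 tags and 96.2 to 235 tags, and Syt1, one of them, fell in its sum from 96.3, 115, 80.7 and 125 to 64.0, 20.3, 44.2 and 96.9 tags (a log2 difference of -0.99, adjusted p = 0.0218), with overlapping groups. Syt1 was the only 1 of 5 tested neuronal sums to pass, and their median log2 change was -0.20, against -0.17 over all genes. The 8 microglial markers summed to 4425 to 6434 tags in vehicle libraries and 3123 to 6095 after IL-33, with a median log2 change of -0.25. Of the 4 endothelial markers 3 had a peak, and these summed to 282 to 377 tags in vehicle libraries and 336 to 692 after IL-33. Slco1a4 had no peak at all and Cldn5 no promoter peak. The Cldn5 sum rose from 26.2 ± 5.01 to 64.9 ± 24.6 tags (a log2 difference of 1.11, adjusted p = 0.00580). The part of such cells in the results was not tested.

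The sodium-coupled neutral amino acid carriers of the SLC38 family had 10 of 88 tested peaks raised (11.4%, against 8.53% of all peaks) and 1 lowered (1.14%, against 4.99%). Slc38a2, a glutamine and alanine carrier induced by amino acid shortage, held 7 of the 10, 6 of them upstream in the intergenic stretch of chromosome 15 beyond its start. The most changed (chr15:96770394-96770713, 70.8 kb upstream) rose from 2.81, 6.61, 3.08 and 5.16 to 30.5, 6.6, 21.3 and 33.5 tags (a log2 difference of 1.96, adjusted p = 3.05e-07). IL-33 library 2, at 6.60 tags, matched vehicle library 2 at 6.61, and the other 3 IL-33 libraries were above all vehicle libraries. A peak 22.8 kb upstream rose from 2.43, 2.91, 3.31 and 6.14 to 17.1, 8.96, 11.3 and 21.4 tags without overlap (a log2 difference of 1.69, adjusted p = 1.66e-05). Of the 31 tested Slc38a2 peaks, 0 fell.

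Slc38a1, its neighbour on the chromosome and also a glutamine carrier, had 2 raised peaks of 27 tested. The one with the smaller p (chr15:96566322-96566607, 75.5 kb downstream of the start, past the gene) went from 7.8, 8.98, 5.24 and 6.28 to 22.6, 10.7, 16.9 and 23.96 tags (a log2 difference of 1.22, adjusted p = 0.00404). Slc38a9, a lysosomal carrier through which arginine is sensed by mTORC1, had 1 raised intronic peak of 8 (chr13:112671759-112672098), from 14.97, 11.6, 9.01 and 8.51 to 29.4, 15.2, 19.6 and 31.7 tags (a log2 difference of 1.02, adjusted p = 0.0233). That call was lost when any one of vehicle libraries 2, 3 and 4 or IL-33 libraries 1 and 4 was left out (adjusted p up to 0.121). Slc38a6 had the family's only lowered peak, in an intron, from 13.4, 13.2, 12.4 and 14.9 to 10.3, 1.65, 3.44 and 7.48 tags (a log2 difference of -1.29, adjusted p = 0.00207). It did not pass without IL-33 library 2 and vehicle library 3 together (adjusted p = 0.0506), a pair of libraries chosen after seeing the data for their low share of tags in peaks.

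**Figure D3:**
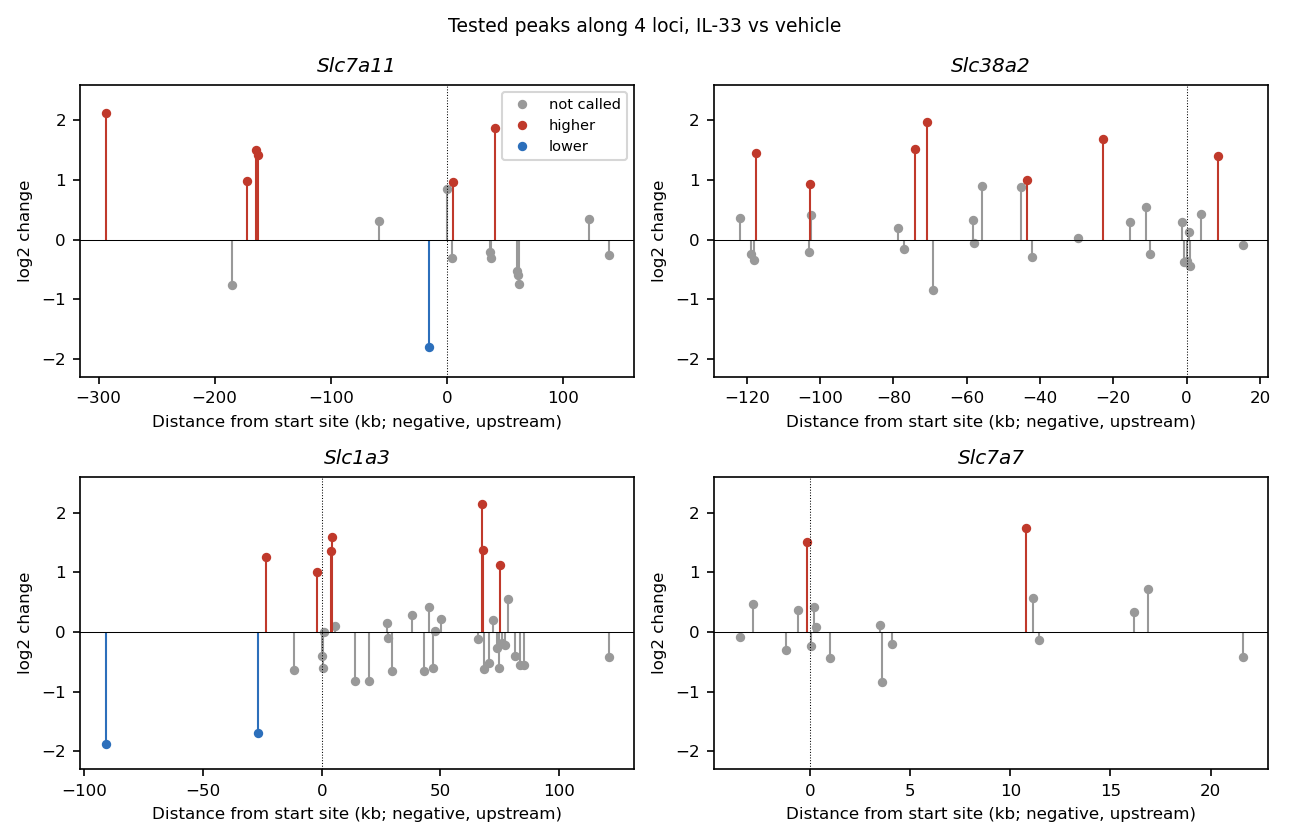
Log2 change of every tested peak (IL-33 against vehicle) against its distance from the gene's start site in kilobases, negative values being upstream, at Slc7a11, Slc38a2, Slc1a3 and Slc7a7. Red points passed the test as higher, blue points as lower and grey points did not pass; raised peaks stand among grey ones at each locus, and Slc7a11 and Slc1a3 also hold lowered peaks.

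The proton-coupled SLC36 carriers gave the highest log2 change of the set, their 1 raised peak of 28 (3.57%, against 8.53% of all peaks), and 0 lowered. Slc36a4, a high-affinity tryptophan and proline carrier, had an intronic peak 5.2 kb downstream of its start (chr9:15714845-15715107) with 2.3, 2.38, 4.9 and 2.37 tags in vehicle libraries and 27.8, 13.8, 16.6 and 35.5 after IL-33 (a log2 difference of 2.52, adjusted p = 1.15e-11). The lowest IL-33 library, library 2, was well above the highest vehicle library. No other of the 28 tested peaks of the family passed in either direction. Slc36a1, the lysosomal proton-coupled carrier, had 253 ± 35.3 tags in sum over its peaks in vehicle libraries and 209.7 ± 53.7 after IL-33 (a log2 difference of -0.29, adjusted p = 0.875).

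In the SLC43 family 0 of 15 tested peaks passed, where 8.53% of all peaks rose and 4.99% fell. Slc43a2, a carrier of branched-chain amino acids, had promoter sums of 107, 123, 85.2 and 89.4 tags in vehicle libraries and 77.6, 58.7, 74.4 and 78.2 after IL-33. All 4 IL-33 values lay below the vehicle values, and the change did not pass the test (a log2 difference of -0.45, adjusted p = 0.759).

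The SLC6 family had 6 of 64 tested peaks raised (9.38%, near the 8.53% of all peaks) and 5 lowered (7.81%, against 4.99%). Slc6a12, the betaine and GABA carrier, had 2 raised peaks on either side of its start. The upstream one (chr6:121341741-121342053) rose from 6.4, 6.34, 3.31 and 3.63 to 22.8, 11.3, 11.6 and 33.1 tags (a log2 difference of 1.69, adjusted p = 1.79e-05). Slc6a6, the taurine carrier, had 1 raised and 2 lowered intronic peaks. The raised one (chr6:91705596-91705936) went from 4.61, 5.02, 2.96 and 5.86 to 14.8, 10.8, 13.5 and 20.2 tags (a log2 difference of 1.47, adjusted p = 3.05e-04), without overlap, while one of the lowered ones fell from 24.4, 27.1, 12.8 and 26.6 to 14.02, 5.31, 8.02 and 12.8 tags (a log2 difference of -1.12, adjusted p = 0.0103), with overlap. Its lowered call was lost without vehicle library 1, 2 or 4 or IL-33 library 3 (adjusted p up to 0.0701).

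Slc6a19, a neutral amino acid carrier of kidney and gut, had 2 promoter peaks, of which 1 rose from 6.4, 4.76, 3.65 and 5.16 to 17.9, 9.31, 10.2 and 27.4 tags (a log2 difference of 1.39, adjusted p = 7.04e-04). The other, over the start site (chr13:73692534-73692828), did not pass (a log2 difference of 0.14, adjusted p = 0.849). A peak assigned to Slc6a18 lies in a Slc6a19 intron and rose from 5.63, 1.85, 2.85 and 0.98 to 8.8, 4.83, 3.82 and 14.96 tags (a log2 difference of 1.19, adjusted p = 0.00527), with overlapping groups. The serotonin carrier Slc6a4 had an upstream peak with 23.7, 35.7, 16.2 and 28.7 tags against 59.9, 32.5, 57.96 and 60.1 (a log2 difference of 0.99, adjusted p = 0.0283), IL-33 library 2 falling among the vehicle values. The call at Slc6a18 was lost without vehicle library 4 or IL-33 library 4, with the larger pseudocount and with quantile normalization (adjusted p up to 0.109), and the call at Slc6a4 without vehicle library 1, 3 or 4 or IL-33 library 1, 3 or 4 (up to 0.176).

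Slc6a17, a vesicular carrier of neutral amino acids known from neurons, had the lowest log2 change of the set. Both of its tested peaks were intronic and both fell. The stronger one (chr3:107491492-107491838) went from 40.9, 51.1, 35 and 38.5 to 13.3, 4.83, 11.6 and 14.3 tags (a log2 difference of -1.88, adjusted p = 1.06e-06). The other (chr3:107480908-107481232) went from 19.7, 31.6, 21.8 and 28.9 to 11.7, 5.42, 8.15 and 13.3 tags (a log2 difference of -1.34, adjusted p = 0.00122). No library overlapped between groups at either peak, and no Slc6a17 promoter peak was in the table. Slc6a16, whose substrate is not known, fell at an intronic peak from 7.8, 9.25, 6.38 and 12.4 to 5.99, 1.06, 5.35 and 4.56 tags (a log2 difference of -1.005, adjusted p = 0.0261), a call lost in 7 of its 17 alternatives, among them those without vehicle library 1, 2 or 4 or IL-33 library 2 (adjusted p up to 0.167).

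When tags were summed over all peaks of a gene, 52 transporter genes could be tested (log2 of the sum plus 5, standard error 0.28). None rose as deposited, against 1.46% of all 16386 genes tested, and 3 fell, against 1.23%. At 4 sums every IL-33 library lay below every vehicle library, against 2.52% of all, and at 0 above, against 2.08%. By limma 2 sums were higher and 4 lower at an unadjusted p under 0.05, and edgeR on the recovered reads with total library sizes likewise called 0 higher and 3 lower. The 3 were Slc6a17, Slc7a14 and Slc1a1, and their distal sums are the same values because they have no promoter peak. Slc6a17 fell from 60.6, 82.7, 56.8 and 67.4 to 24.99, 10.2, 19.7 and 27.6 tags (a log2 difference of -1.53, adjusted p = 1.60e-05). Slc7a14 fell from 58.2, 38.2, 40.4 and 75.3 to 22.1, 6.6, 15.03 and 38.5 tags (a log2 difference of -1.296, adjusted p = 4.77e-04), IL-33 library 4 overlapping vehicle library 2. Slc1a1 fell from 57.8, 75.2, 45.3 and 76.2 to 41.3, 14.1, 22.6 and 41.8 tags (a log2 difference of -1.04, adjusted p = 0.0117), a call lost without vehicle library 1, 2 or 4 or IL-33 library 3 and with the larger pseudocount (adjusted p up to 0.159).

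The median log2 change of all gene sums was -0.17 as deposited, -0.07 with median-ratio scaling, -0.05 with quantile normalization and -0.01 in edgeR with TMM, and the counts of calls differed. Median-ratio scaling gave 11 higher and 10 lower sums, quantile normalization 11 and 12, and TMM 13 and 9. Without IL-33 library 2, 6 sums rose (Slc1a2, Slc1a7, Slc6a12, Slc6a4, Slc7a1 and Slc7a5) and the same 3 fell. Slc6a12 came closest to a rise as deposited, from 26.99, 36.2, 36.5 and 42.97 to 81.6, 42.1, 59.5 and 95.98 tags (a log2 difference of 0.84, adjusted p = 0.0851). Sums at other named genes did not pass as deposited, with log2 changes of -0.43 at Slc1a3, 0.08 at Slc1a5, -0.19 at Slc38a1, 0.08 at Slc38a2, -0.14 at Slc38a9, -0.097 at Slc3a2, -0.36 at Slc43a2, -0.11 at Slc6a6, 0.41 at Slc7a5, 0.16 at Slc7a7, 0.04 at Slc7a8 and -0.05 at Slc7a11. The sum joins opposite changes at Slc7a11, Slc1a3 and Slc6a6, where called peaks went both ways.

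Promoter and distal signal of the same gene were then compared. Of 25 transporter genes tested on promoter peaks, 0 rose (0.818% of all 10886 genes tested did) and 0 fell (0.615%), with 3 higher and 1 lower at an unadjusted p under 0.05 by limma and 1 gene (1.85% of all) whose IL-33 libraries all lay below the vehicle ones, against 0 above (1.19%). In edgeR on recovered reads 0 passed in either direction with total library sizes, and 4 rose with TMM, Slc7a11, Slc7a7, Slc6a19 and Slc7a1. The same 4 promoters rose with median-ratio scaling and with quantile normalization, where Slc43a3 and Slc38a2 fell, and the same 4 when IL-33 library 2 was left out. Leaving out IL-33 library 4 gave 1 promoter call, Slc43a3, as lower. Over distal peaks, meaning every other annotation class, 0 of 51 genes rose as deposited (3.24% of all 14404 did) and the 3 genes above fell (2.17%). At 3 distal sums, those of Slc1a1, Slc6a17 and Slc6a7, every IL-33 library lay below every vehicle library, against 3.64% of all, and at 0 above, against 4.28%. There were 4 higher and 4 lower at an unadjusted p under 0.05. Median-ratio scaling gave 11 higher and 10 lower distal sums, quantile normalization 9 and 11, TMM 12 and 10, and 7 rose without IL-33 library 2. In edgeR with total library sizes 1 distal sum rose, that of Slc6a12. Among genes that also have a promoter peak, Slc7a5 had the highest distal log2 change, from 126, 147, 84.2 and 113 to 251, 119.7, 191 and 266 tags (a log2 difference of 0.75, adjusted p = 0.0992), the groups overlapping at IL-33 library 2.

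The difference between distal and promoter change within a library does not depend on the scaling of that library, apart from the pseudocount. It could be tested at 24 transporter genes, and 6 had a distal change above the promoter change (25.6% of all 8360 genes did) and 3 one below it (7.03%). The median difference was 0.14 over both the transporter genes and all genes, and 25% of the transporter genes lay above and 12.5% below. Slc7a5 stood out upward, with a distal change 0.95 log2 units above its promoter change (adjusted p = 2.27e-04). Slc38a7 (0.48), a lysosomal glutamine and asparagine carrier, Slc38a2 (0.48), Slc36a4 (0.46), Slc7a8 (0.38) and Slc43a3 (0.38) followed, with adjusted p from 0.00236 to 0.0353. The Slc43a3 call was lost in 8 of 16 alternatives (adjusted p up to 0.127), among them those without any one vehicle library or without IL-33 library 1 or 3. The Slc7a8 call was lost in 6 (up to 0.120), among them those without vehicle library 3 or 4 or IL-33 library 3 or 4, and the Slc38a7 call when distal peaks had to lie beyond 3000 bp (adjusted p = 0.0922).

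In the opposite direction, promoter change exceeded distal change at Slc7a11 (difference -0.897, adjusted p = 8.15e-05), Slc6a19 (-0.74, adjusted p = 3.23e-04) and Slc7a7 (-0.59, adjusted p = 0.00128). At Slc7a11 the promoter went from 27.1, 32.2, 19.5 and 26.1 to 60.8, 26.5, 42.7 and 72.5 tags while the distal sum went from 441, 505, 366 and 438 to 544, 216, 325 and 651. At Slc7a7 the promoter sum went from 121, 110.1, 75.5 and 109 to 172, 99.7, 145 and 209 tags and the distal sum from 260.5, 236, 200.1 and 261 to 271, 151, 233 and 292. These 3 calls and those at Slc7a5, Slc38a2 and Slc36a4 held in all 16 alternatives run.

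**Figure D4:**
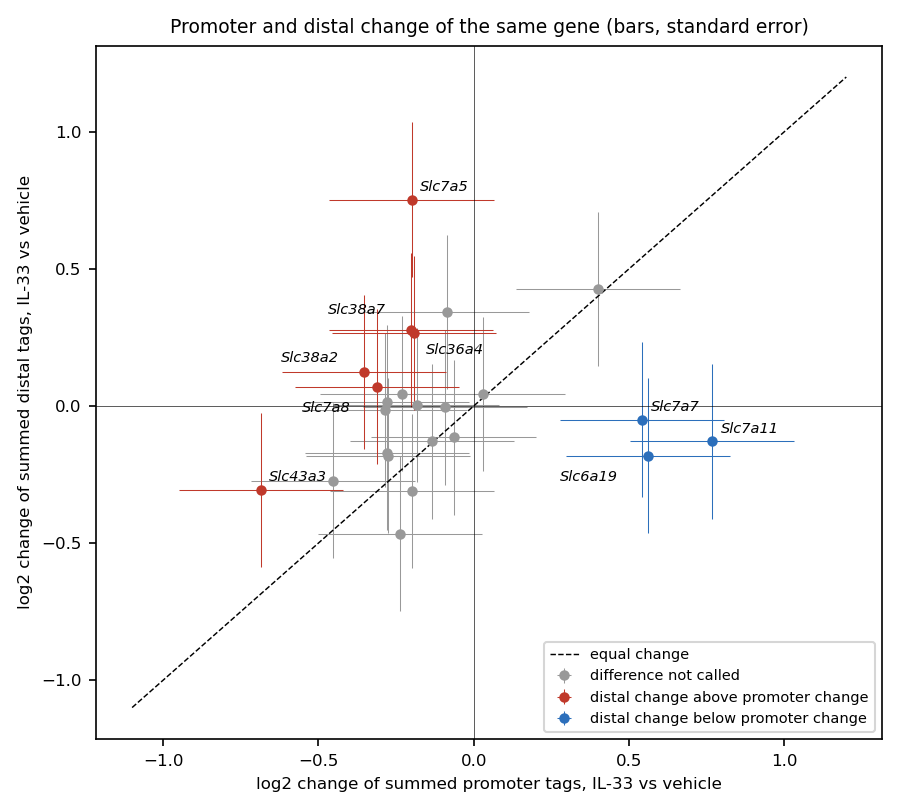
Log2 change of summed distal tags against log2 change of summed promoter tags at the 24 transporter genes tested in both, IL-33 against vehicle, with standard errors as bars and the line of equal change dashed. Red genes had a distal change above the promoter change, blue genes one below it, and grey genes passed in neither direction; Slc7a11, Slc7a7 and Slc6a19 lie to the right of the line and Slc7a5 lies highest.

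The changed peaks were mostly distal. Raised ones were mostly weak in vehicle libraries, which the selection of a rise and the filter on the mean over all 8 libraries partly fix in advance. Of 47 tested promoter peaks 3 rose (6.38%, against 2.45% of all promoter peaks) and 0 fell (1.28% of all). Of 120 intergenic peaks 17 rose (14.2%, against 10.3% of all) and 9 fell (7.5%, against 6.38%). Of 179 intronic peaks 20 rose (11.2%, against 9.82%) and 8 fell (4.47%, against 5.495%), shares close to those of introns in general. Peaks that the authors' lists gave to the IL-33 group alone made up 26 of the 44 raised peaks (26 of 59 tested, 44.1%, against 38.5% of all such peaks), and 18 were on both lists. The lists came from the same libraries, so they are no separate evidence. Raised peaks lay a median of 14.0 kb from the assigned start site and lowered ones 34.2 kb, against 14.9 and 29.8 kb for all raised and lowered peaks. Median vehicle levels were 3.58 tags at raised and 14.9 tags at lowered transporter peaks, against 4.19 and 19.0 tags over all raised and lowered peaks. Of the 32 called peaks in introns, exons or the 3′ UTR, 28 lay in the gene to which they were assigned.

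Baseline promoter levels can be compared between genes per kilobase of promoter peak. In vehicle libraries 34 transporter genes had a promoter peak, with a median level of 128 tags per kb, against 199.995 tags per kb over all 12096 genes with one, and 7 lay above that median. Slc38a9 was the most open at 456 ± 49.2 tags per kb (SD, n = 4), followed by Slc1a4, a serine and alanine carrier, at 383 ± 42.98, Slc38a10 at 371 ± 56.3 and Slc7a5 at 350 ± 63.5. The last 3 of these means differ from their neighbour by less than the SD, and the first lies above the next by more than its SD. Slc3a2 had 169 ± 16.7 tags per kb, Slc7a1 147 ± 28.2, Slc7a7 107 ± 20.3 and Slc7a11 93.0 ± 18.6. The lowest was Slc6a2, the noradrenaline carrier, at 12.8 ± 9.08 tags per kb, and Slc7a2, the macrophage arginine carrier, was also low at 18.03 ± 2.31.

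Genes that use, sense or make the transported amino acids were examined as lists. Of 146 tested peaks at 22 measured genes of amino acid sensing by mTORC1, 11 rose and 6 fell (7.53% and 4.11%), both shares below those of all tested peaks (8.53% and 4.99%). Single peaks that changed included a rise in an intron of Rptor, the mTORC1 scaffold, from 4.99 ± 0.621 to 24.9 ± 4.41 tags (a log2 difference of 2.07, adjusted p = 5.34e-08), and at the promoter of Rraga, one of the Rag GTPases that bring mTORC1 to the lysosome, from 2.35 ± 0.524 to 6.55 ± 2.02 tags (a log2 difference of 1.11, adjusted p = 0.0111). Sesn3, a sestrin, fell at an upstream peak from 18.3 ± 2.34 to 6.67 ± 2.12 tags (a log2 difference of -1.36, adjusted p = 0.00106). Of 132 peaks at 18 genes of the ATF4 stress response, 12 rose (9.09%, against 8.53% of all peaks) and 11 fell (8.33%, against 4.99%). The most changed peak, in an intron, belonged to Cebpg, a C/EBP partner of ATF4, and fell from 19.2 ± 2.96 to 3.55 ± 1.48 tags (a log2 difference of -2.15, adjusted p = 1.32e-08). Ddit4, an inhibitor of mTORC1 signalling, fell upstream from 74.2 ± 12.3 to 28.99 ± 13.6 tags (a log2 difference of -1.44, adjusted p = 4.20e-04). Atf4 itself had no called peak, its most changed one going from 3.80 ± 1.32 to 7.86 ± 2.17 tags (a log2 difference of 0.86, adjusted p = 0.0701). Atf3 rose upstream from 6.43 ± 2.35 to 25.6 ± 7.92 tags (a log2 difference of 1.81, adjusted p = 3.09e-06).

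Among 138 peaks at 18 genes of glutathione synthesis and its regulator NRF2, 14 rose (10.1%, near the 8.53% of all peaks) and 2 fell (1.45%, against 4.99%). Gsr, glutathione reductase, had an intronic peak that went from 0.803 ± 0.536 to 21.1 ± 8.603 tags (a log2 difference of 3.47, adjusted p = 7.23e-22). Nfe2l2, which encodes NRF2, rose upstream from 3.96 ± 2.16 to 20.1 ± 6.84 tags (a log2 difference of 2.08, adjusted p = 4.79e-08), and Gclc, the catalytic subunit of the first enzyme of glutathione synthesis, from 2.14 ± 1.55 to 9.52 ± 4.61 tags (a log2 difference of 1.69, adjusted p = 1.87e-05). In the other direction, the Ggt5 promoter fell from 37.3 ± 8.21 to 17.7 ± 6.80 tags (a log2 difference of -1.07, adjusted p = 0.0150). Among 63 peaks at 13 arginine and polyamine genes, 6 rose and 2 fell (9.52% and 3.17%, against 8.53% and 4.99% of all peaks). Srm, one of them, fell upstream from 67.4 ± 13.3 to 33.4 ± 13.7 tags (a log2 difference of -1.06, adjusted p = 0.0170). Odc1, which makes putrescine, rose upstream from 2.61 ± 0.570 to 30.7 ± 18.3 tags (a log2 difference of 2.89, adjusted p = 2.98e-15) and Ass1, which remakes arginine from citrulline, from 2.22 ± 1.37 to 20.2 ± 3.65 tags (a log2 difference of 2.74, adjusted p = 1.02e-13). Nos2, inducible nitric oxide synthase, was the only gene of these 4 lists whose sum passed, from 14.5 ± 4.06 to 33.2 ± 7.34 tags (a log2 difference of 0.97, adjusted p = 0.0245). The Rraga, Gsr, Nfe2l2, Gclc, Odc1 and Ass1 peaks had vehicle means below 4.30 tags, so they too were tested only through their IL-33 values. The median log2 change of gene sums was -0.15, -0.04, -0.07 and -0.19 in the 4 lists in this order, against -0.17 over all genes.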

How the data were processed

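ATAC-seq measures open chromatin by transposase insertion. Per the file headers, the authors annotated reproducible merged peaks with HOMER on mm10, counting tags over each peak as given, at most 3 per position, scaled to 10000000 tags per library; these deposited values are signal, not raw counts. The submitters' processing notes also name Bowtie2 and DESeq2, with roles not given in the sources used here. The deposited peak score was not tested. Whole reads were recovered for 100% of values (tolerance 0.006 of a tag). Here limma 3.58.1 (R 4.3.3) was fitted to log2(tags + 1.155) per peak and log2(sum + 5) per gene, after leaving out features in the lowest 10% of means, with Benjamini-Hochberg adjustment over all features and a threshold of 0.05. As an alternative, edgeR 4.0.16 on the recovered reads called 8256 higher and 3483 lower of 94480 peaks with total library sizes, and 16132 and 11157 with TMM. Named were transporter genes whose sum passed, the called peak with the smallest p of each gene, and 16 carriers in any case; further peaks of these genes, and the list genes given, were picked after their values were seen. The members and lists were chosen with earlier results of these data known. The 8 libraries are taken as 1 mouse each, and p-values rest on the spread between them. In the main fits of peaks and sums, limma pooled that spread over all features, so every feature had the same standard error (0.34 for peaks, 0.28 for gene sums). The p-value of a peak or sum there follows its log2 change alone and does not measure the spread of its own libraries. At 1 read, worth 0.114 to 0.139 tags, precision is limited in weak peaks.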

Additional observations from a re-analysis of the deposited data

Results flagged for a closer look

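In 5 of 232 groups of 4 libraries checked, one library stood far from the other 3 relative to the range of the group; chance gives about 1 in 20 such groups. Vehicle library 3 had 4.90 tags at the Slc36a4 intronic peak, against 2.30 to 2.38 in the other vehicle libraries, and 4.10 tags at the upstream Slc7a1 promoter peak, against 7.04 to 7.53. The same library had 562 tags in the Slc38a2 distal sum, against 707 to 736. Vehicle library 2 had 3.96 tags at the Slc1a3 peak at chr15:8706222, against 1.54 to 1.81. IL-33 library 2 had 32.5 tags at the Slc6a4 upstream peak, against 58.0 to 60.1 in the other IL-33 libraries. Vehicle library 3 and IL-33 library 2 have the lowest share of tags in peaks of their groups, and the part of that share in these values was not tested.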

How the results depend on the processing

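Of 2235 recomputed values for 133 named results, 2046 kept their side of the threshold, 116 lost the call and 73 gained it. With a call on either side, 0 reversed direction. The 2046 include values called under neither setting, and the sign of such values could change. The Slc7a11 gene sum, for example, had log2 changes from -0.28 to 0.24 over its alternatives. Transporter peaks called higher numbered 44 as deposited, 72 with median-ratio scaling, 78 with TMM and 28 to 67 when 1 library was left out; lower peaks numbered 17, 42, 45 and 11 to 29, and 49 with quantile normalization. Gene sums called higher numbered 0 as deposited, 11 with median-ratio scaling, 11 with quantile normalization, 13 with TMM, 4 without IL-33 library 2 and vehicle library 3, and 0 to 6 with 1 library left out. Gene sums called lower numbered 3, 10, 12, 9 and 2 to 4 with 1 library left out. Promoter sums called higher numbered 0, 4, 4, 4, 3 without both libraries and 0 to 4; lower 0, 2, 2 and 0 to 1. Distal sums called higher numbered 0, 11, 9, 12, 5 without both libraries, 1 with no filter, 1 with edgeR totals, 1 beyond 3000 bp and 0 to 7; lower 3, 10, 11, 10, 1 with the larger pseudocount and 2 to 4. Differences between distal and promoter change numbered 6 and 3, and 4 to 6 and 3 with 1 library left out. The cause of these moves was not tested. Leaving out both IL-33 library 2 and vehicle library 3 was chosen after seeing the data. No paired analysis was possible because the columns carry numbers within a group that the labels do not tie to mice. Depth limits peaks near 3 reads, 0.342 to 0.418 tags.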

Other observations

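Enzymes that work on the transported amino acids outside the lists above changed at single peaks, in lists whose shares are to be read against 8.53% of all tested peaks higher and 4.99% lower. Il4i1, a secreted amino acid oxidase acting on phenylalanine and tryptophan, rose at its promoter from 10.2 ± 2.15 to 52.9 ± 14.3 tags (SD, n = 4, a log2 difference of 2.23, limma adjusted p = 3.05e-09), among 3 higher (9.38%) and 1 lower of 32 tested peaks at tryptophan and kynurenine genes, and Kynu fell upstream from 17.9 ± 2.23 to 7.18 ± 5.39 tags (a log2 difference of -1.44, adjusted p = 4.25e-04). Of 64 peaks at serine and one-carbon genes, 2 rose (3.12%) and 6 fell (9.38%), with Bcat1, the cytosolic branched-chain aminotransferase, higher (2.25 ± 1.59 to 20.5 ± 11.8 tags, a log2 difference of 2.67, adjusted p = 4.92e-13) and Psat1, of serine synthesis, lower (30.6 ± 5.33 to 13.4 ± 7.36 tags, a log2 difference of -1.28, adjusted p = 0.00226).

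Of 68 peaks at glutamine, glutamate and GABA enzymes, 2 rose (2.94%) and 6 fell (8.82%). Glul, glutamine synthetase, fell from 15.9 ± 4.53 to 5.62 ± 1.503 tags (a log2 difference of -1.33, adjusted p = 0.00141). Among 27 peaks at other glutamate or glycine carriers, 2 rose (7.41%) and 1 fell (3.70%), with Slc25a12, a mitochondrial aspartate and glutamate carrier, higher in an intron (2.87 ± 2.30 to 26.5 ± 10.7 tags, a log2 difference of 2.90, adjusted p = 2.64e-15). Groups did not overlap at any of the peaks named here, and no gene sum of these lists passed the test. The Bcat1 and Slc25a12 peaks had vehicle means below 4.30 tags and were likewise tested only through their IL-33 values.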
